A study of Oryctolagus cuniculus with 8 samples.

Results

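The genes described here are 10 mucins and secretory genes of the ocular surface, MUC1, MUC4, MUC16, MUC20, AGR2, TFF3, PIGR, LCN2, SPDEF and PSCA, which were taken as a list of names and matched to the gene names of the deposited table. Of these 10 genes, 5 had a row under their own name among the 20922 entries, namely MUC1, MUC4, MUC20, PIGR and SPDEF. MUC16, AGR2, TFF3, LCN2 and PSCA were not analysed here. After a filter on low counts, 4 of the 5 genes with a row (MUC1, MUC4, MUC20 and PIGR) remained among 10012 genes that were tested, and SPDEF was left out of the test by that filter.

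The data were RNA-seq libraries of total RNA from limbal epithelial cells of New Zealand white rabbits, the cells at the border of cornea and conjunctiva. Cells were stained with a Hoechst DNA dye and sorted into a side population (SP, 4 samples), which keeps little of the dye, and the remaining non-side population (NSP, 4 samples). Libraries were sequenced on an Ion Proton instrument, and no other treatment, genotype, age or cell number is in the labels. The labels do not say whether the samples of a group came from separate animals or pools, so p-values measure only the spread between these samples. The table's columns show the group but no sample, and libraries are numbered 1 to 4 within a group by column order.

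Mucins are large, heavily O-glycosylated proteins. At the eye's surface the membrane-bound mucins MUC1, MUC4 and MUC16 line the apical cells and form the glycocalyx that holds the tear film, while goblet cells of the conjunctiva secrete gel-forming mucins such as MUC5AC. PIGR carries polymeric immunoglobulin A across an epithelium into the secretion. SPDEF is a transcription factor that drives goblet cell differentiation in mouse airway, gut and conjunctiva, and AGR2, an endoplasmic reticulum disulfide isomerase, and TFF3, a trefoil peptide, are products of such secretory cells.

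The libraries held 15553295 to 18931836 exon reads in SP and 20445565 to 23529101 in NSP. Levels are given in CPM, the read count of a gene divided by the scaled read total of its library. Of 10012 tested genes, 30.7% passed an adjusted p of 0.05, 17.7% as higher and 13% as lower in SP. With median-ratio size factors the calls were 1556 higher and 1497 lower, and with upper-quartile factors 1437 and 1628, against 1772 and 1301 with the scaling used here. The median log2 fold change over all tested genes was 0.12 with the scaling used here and -0.06 with upper-quartile factors, and small differences are to be read against that shift. Corneal and limbal markers summed to 530 to 5911 CPM in the SP libraries and 17795 to 35443 CPM in the NSP libraries, and all 7 of those tested were lower in SP. Markers of endothelial cells (1047 to 9856 CPM in SP, 0.966 to 2.63 CPM in NSP), T and NK cells (411 to 1283 and 2.17 to 6.18 CPM), melanocytes (1713 to 12252 and 90.6 to 251 CPM), myeloid cells (905 to 2248 and 28.4 to 55.2 CPM) and stromal cells (213 to 384 and 36.8 to 53.8 CPM) summed higher in every SP library than in any NSP library, with 28 of their 29 tested genes called higher. Several of these marker genes met the filter on low counts only through the SP libraries, where they were high. CD8B, COL3A1 and LUM, for example, had 0 reads in NSP. The count of 28 is therefore no support. Neutrophil markers, not among these lists, had overlapping sums, which are given below. The part of these other cell types in the levels of the mucins and secretory genes was not tested. In bulk samples, fewer cells of a type and less RNA per cell cannot be told apart.

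None of the 4 tested genes passed the test between SP and NSP, given the spread between libraries. The median log2 fold change of these 4 genes was -0.24, against 0.12 for all 10012 tested genes, and 0 of 4 were called, where 30.7% of all tested genes were. At an unadjusted p under 0.05 the count was 0 as well, and no alternative fit with limma gave a call for any of them. The intervals were wide. The 4 genes shared a large spread inside the groups and, in SP, an order of the libraries, and several other epithelial genes had both as well.

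**Figure D1:**
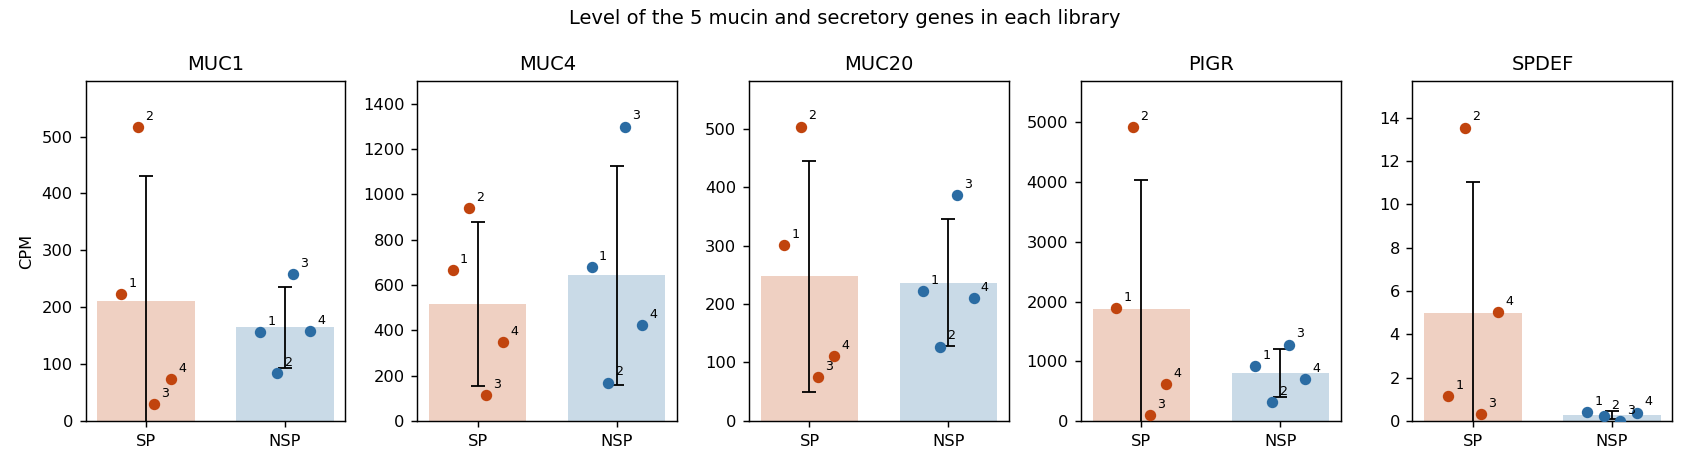
Level of MUC1, MUC4, MUC20, PIGR and SPDEF in each library, in CPM, with SP left of NSP in each panel. Points are libraries with their numbers, shaded bars are group means (n = 4 each), and black lines are the SD, not drawn below 0. The points of SP and NSP overlap in every panel, and SP library 2 is the highest and SP library 3 the lowest SP point in each.

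MUC1, a membrane mucin with a short cytoplasmic tail that signals in many epithelia, was measured at 223, 517, 29.1 and 74.1 CPM in SP libraries 1 to 4, against 156, 84.0, 259 and 158 CPM in NSP libraries 1 to 4. SP held both the highest and the lowest of the 8 values, so the groups overlapped. The mean was 211 ± 220 CPM in SP and 164 ± 71.8 CPM in NSP (SD, n = 4 each). The log2 fold change of MUC1 was -0.27 ± 0.75 (SE, limma-voom, Benjamini-Hochberg adjusted p = 0.816), with a 95% interval from -1.93 to 1.39. This interval includes changes from 0.262-fold to 2.62-fold. Without SP library 3 the log2 fold change was 0.43.

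MUC4, a membrane mucin that pairs with the receptor ERBB2, was measured at 664, 940, 114 and 348 CPM in SP libraries 1 to 4, against 679, 169, 1299 and 423 CPM in NSP libraries 1 to 4. NSP library 3 was the highest and SP library 3 the lowest, and the groups overlapped. The mean was 517 ± 361 CPM in SP and 642 ± 484 CPM in NSP (SD, n = 4 each). The log2 difference for MUC4 came to -0.34 ± 0.71 (SE; limma-voom, adjusted p = 0.753; 95% interval -1.91 to 1.23). The value was 0.26 without SP library 3 and 0.12 without NSP library 3.

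MUC20, a smaller membrane mucin that is known to bind the receptor MET, was measured at 301, 503, 75.4 and 110 CPM in SP libraries 1 to 4, against 222, 127, 387 and 210 CPM in NSP libraries 1 to 4. SP library 2 was the highest, SP libraries 3 and 4 were the lowest, and all 4 NSP values lay between SP library 4 and SP library 2. The mean was 247 ± 197 CPM in SP and 236 ± 109 CPM in NSP (SD, n = 4 each). The log2 fold change of -0.21 ± 0.57 (SE, limma-voom adjusted p = 0.806; 95% interval -1.47 to 1.04) had the narrowest interval of the 4 genes. It was 0.23 without SP library 3 and 0.06 without NSP library 3.

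PIGR, the receptor for polymeric immunoglobulin, had the highest mean CPM of the 5 genes in both groups, although MUC4 was above it in SP library 3 and NSP library 3. It was measured at 1883, 4915, 93.3 and 612 CPM in SP libraries 1 to 4, against 921, 321, 1278 and 702 CPM in NSP libraries 1 to 4. SP libraries 1 and 2 lay above every NSP library and SP library 3 lay below every one, so the groups overlapped. The mean was 1876 ± 2161 CPM in SP and 805 ± 401 CPM in NSP (SD, n = 4 each), a ratio of means of 2.33. On the log scale the difference was 0.25 ± 1.00 (SE, limma-voom adjusted p = 0.877; 95% interval -1.96 to 2.46). The ratio of means followed SP library 2, which alone held 4915 CPM. The log2 fold change was -0.59 without SP library 2, -0.13 without SP library 1, -0.15 without NSP library 2 and 1.31 without SP library 3, and none of these passed the threshold (adjusted p from 0.190 to 0.943). With sample quality weights it was 1.01 (adjusted p = 0.401).

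SPDEF was counted with 21, 262, 6 and 72 reads in SP libraries 1 to 4, against 9, 5, 0 and 8 reads in NSP libraries 1 to 4. These counts correspond to 1.1, 13.5, 0.323 and 5.0 CPM in SP and to at most 0.405 CPM in NSP. SP libraries 1, 2 and 4 lay above every NSP library, and SP library 3 lay within the NSP range. In all, 361 reads were counted in SP and 22 in NSP, and the mean was 5.0 ± 6.05 CPM in SP and 0.256 ± 0.187 CPM in NSP (SD, n = 4 each). SPDEF reached the minimum of 0.508 CPM in fewer than the 4 libraries that the filter asked for, so it has no value in the fit of 10012 genes. With no filter its log2 fold change was 3.62 ± 1.33 (SE, limma-voom adjusted p = 0.0724 over 13015 genes). Without 1 library the filter asked for 3 libraries, which SPDEF could meet only through SP libraries 1, 2 and 4, where it was high, so the fits that then included it are no support. They gave an adjusted p of 0.0435 without SP library 3, its lowest SP library, and 0.183 to 0.253 without an NSP library. In the authors' deposited table an EDGE test listed SPDEF with a fold of -17.6, where a negative sign means lower in NSP, and a corrected p-value of 0.00973.

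The same deposited table gave folds of -1.17 for MUC1, 1.36 for MUC4, 1.048 for MUC20 and -2.12 for PIGR on that NSP over SP scale. Corrected p-values in the authors' deposited table were 1 for the 3 mucins and 0.524 for PIGR. For MUC1 the fold in the authors' deposited table has the opposite direction to the log2 fold change of -0.27 given above, and the same direction as the ratio of mean CPM, SP over NSP, of 1.28.

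Levels of different genes were set against each other per kilobase of exon, with the exon length taken from a field that is the same in every library. In SP the mean was 522 ± 601 CPM per kilobase for PIGR, 160 ± 167 for MUC1, 133 ± 92.9 for MUC4, 89.6 ± 71.5 for MUC20 and 4.06 ± 4.90 for SPDEF (SD, n = 4). In NSP it was 224 ± 112 CPM per kilobase for PIGR, 165 ± 124.6 for MUC4, 124.7 ± 54.5 for MUC1, 85.6 ± 39.3 for MUC20 and 0.207 ± 0.152 for SPDEF. PIGR came first in both groups and SPDEF last. The step from PIGR to its neighbour was smaller than the SD of PIGR in both groups, and the steps between MUC1, MUC4 and MUC20 were smaller than the SD of either gene of each step. The step from MUC20 to SPDEF was larger than the SD of both genes, in SP and in NSP. The exon length listed for MUC4 was 3886 bases, for MUC20 2761, for MUC1 1318, for PIGR 3595 and for SPDEF 1233. How reads from the repeats of mucin genes were counted is not known here.

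The spread between libraries of a group was larger for these genes than for most. The highest SP library exceeded the lowest by 52.7-fold for PIGR, 17.7-fold for MUC1, 8.21-fold for MUC4 and 6.67-fold for MUC20. In NSP the same ratio was 3.99 for PIGR, 3.08 for MUC1, 7.67 for MUC4 and 3.04 for MUC20. On the log2 scale the SP range of 5.71 for PIGR stood at percentile 99.8 of all tested genes, whose median SP range was 1.33. The NSP range of 2.94 for MUC4 stood at percentile 98.4, against a median of 0.82 over all tested genes. The other ranges stood lower. In SP they were at percentiles 97.9 for MUC1, 91.0 for MUC4 and 87.1 for MUC20, and in NSP at 92.1 for PIGR, 85.8 for MUC1 and 85.4 for MUC20. Residual SD from the fit is weighted by the precision of each value, so it is not the plain log2 spread. By this measure PIGR, MUC1, MUC4 and MUC20 stood at percentiles 99.9, 99.5, 99.2 and 97.1. Other epithelial genes lay as high, such as KRT12 at 99.7, KRT3 at 99.8, EHF at 98.5 and DMBT1 at 99.7.

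The libraries fell in the same order for several of these genes. In SP the order was library 2, 1, 4, 3 for MUC1, MUC4, MUC20 and PIGR. In NSP it was library 3, 1, 4, 2 for MUC4, MUC20 and PIGR, and MUC1 differed from it only in that libraries 1 and 4, at 156 and 158 CPM, were exchanged. Of all tested genes, 4.49% had the SP order, 4.65% had the NSP order and 56 genes (0.559%) had both. Of 17 other epithelial and secretory genes looked at, chosen after their values were seen, 9 had the same SP order, among them CDH1, EPCAM, KRT7, KRT18 and EHF, and 2 (KRT7 and MUC21) had the NSP order. SPDEF had its own order in SP, with library 2 highest, then 4, 1 and 3. The 5 genes together took 0.347%, 0.709%, 0.0307% and 0.106% of the reads of SP libraries 1 to 4, and 0.187%, 0.0724%, 0.316% and 0.148% of the reads of NSP libraries 1 to 4.

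**Figure D2:**
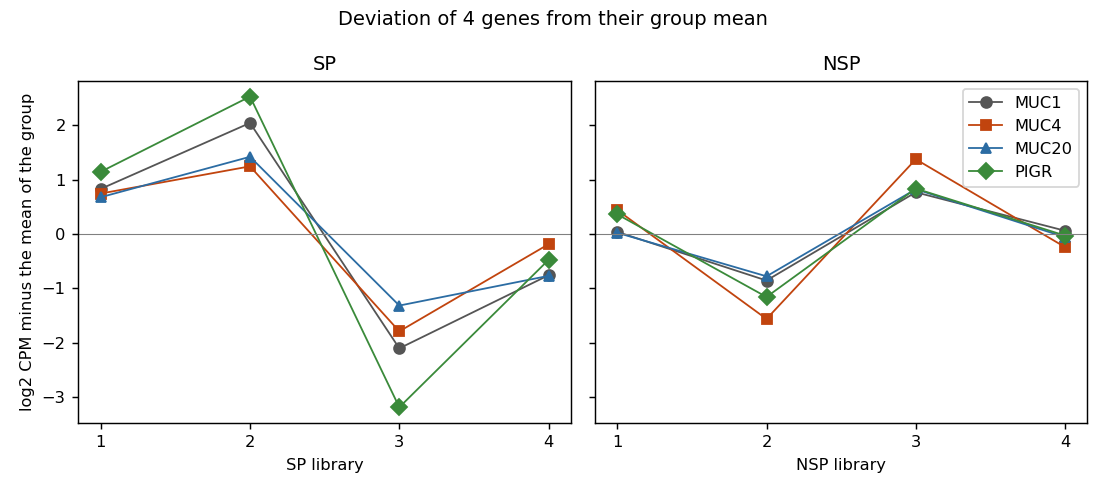
Deviation of log2 CPM from the mean of the group for MUC1, MUC4, MUC20 and PIGR in each SP library (left) and each NSP library (right). Lines join the points of a gene, and library numbers carry no order in time or dose. All 4 genes are highest in SP library 2 and lowest in SP library 3, and in NSP all are highest in library 3 and lowest in library 2.

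The proportions between the genes varied between libraries. PIGR stood to MUC1 at CPM ratios of 8.45, 9.51, 3.20 and 8.26 in SP libraries 1 to 4, against 5.90, 3.82, 4.94 and 4.43 in NSP libraries 1 to 4. SP libraries 1, 2 and 4 lay above all NSP libraries and SP library 3 below them. The ratio of MUC20 to MUC1 was 1.35, 0.974, 2.59 and 1.49 in SP and stayed between 1.32 and 1.51 in NSP. The PIGR to MUC4 ratio was 2.84, 5.23, 0.815 and 1.76 in SP libraries 1 to 4, against 1.36, 1.89, 0.985 and 1.66 in NSP libraries 1 to 4, with overlapping groups.

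For the 3 genes with the highest mean CPM, the named genes with the closest profiles over the 8 libraries were sought among 8588 genes, by the root mean square difference of centred log2 values. Closest to PIGR were TMC5, a membrane protein of the TMC family, at 0.255, NR2E3, a nuclear receptor known from photoreceptors, at 0.400 and LIPH, a phospholipase, at 0.451, while the median over all compared genes was 1.74. NR2E3 was low, with means of 3.94 CPM in SP and 1.80 CPM in NSP. Closest to MUC4 were MFSD4 at 0.249, MICALCL at 0.362 and WNT11, a secreted Wnt ligand, at 0.422, against a median of 1.32. MUC20 had LRRC16A, an actin capping regulator, at 0.274, SLC13A5, a citrate transporter, at 0.303 and PROSER2 at 0.309, against a median of 1.101. By this measure MUC1 was rank 9, MUC4 rank 32 and MUC20 rank 46 for PIGR. For MUC4, MUC20 was rank 5, MUC1 rank 10 and PIGR rank 111, and for MUC20, MUC1 was rank 8, MUC4 rank 28 and PIGR rank 1098. The difference between PIGR and MUC20 was 0.846, which lies below both the median of 1.74 for PIGR and the median of 1.101 for MUC20.

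Epithelial markers were set beside the mucins, since they were lower in SP. CDH1, the adhesion protein E-cadherin, was measured at 635, 1021, 193 and 456 CPM in SP libraries 1 to 4, against 1845, 1604, 1067 and 1788 CPM in NSP libraries 1 to 4. EPCAM, another epithelial adhesion protein, was measured at 305, 347, 47.3 and 180 CPM in SP libraries 1 to 4, against 963, 959, 575 and 913 CPM in NSP libraries 1 to 4. Both genes were lowest in library 3 of each group. Neither overlapped between groups, whereas the mucins and PIGR did, and 32.8% of all tested genes did not overlap. The log2 fold change was -1.66 for CDH1 and -2.27 for EPCAM, both past the threshold in limma-voom. The call of CDH1 was lost without NSP library 4 (adjusted p = 0.0518).

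**Figure D3:**
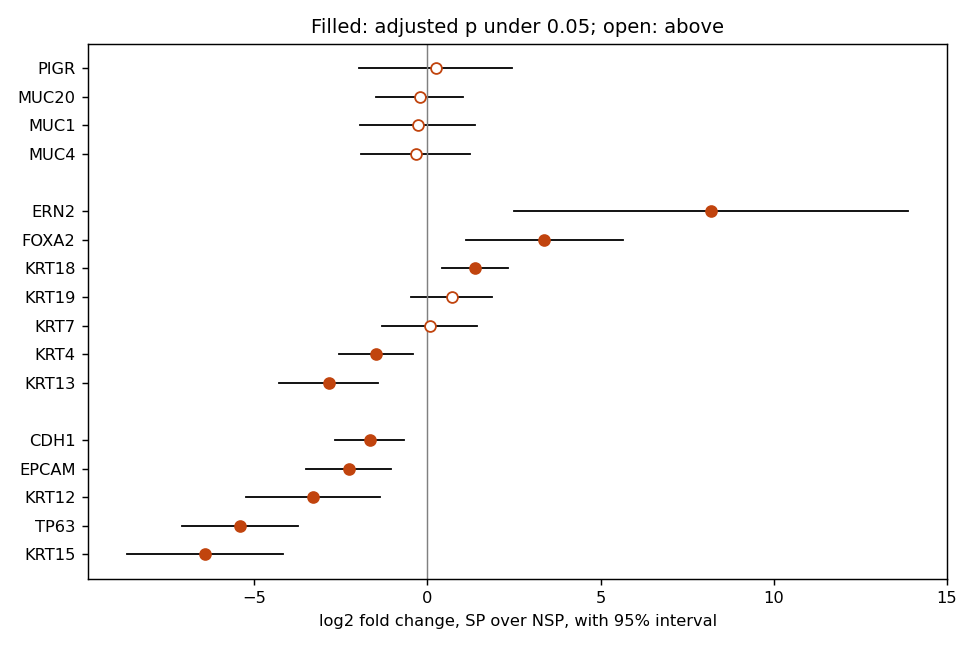
Log2 fold change of SP over NSP with its 95% interval for the 4 tested mucin and secretory genes (top). The middle holds ERN2, FOXA2 and keratins of conjunctiva and simple epithelia, and the bottom corneal, limbal and general epithelial genes. Of 17 tested secretory lineage factors, 2 were higher and 3 lower in SP, and only FOXA2 is drawn. Filled points passed an adjusted p of 0.05 and open points did not. ERN2 and FOXA2 met the filter only with the SP libraries, where they were high, so their filled points are no support. PIGR, MUC20, MUC1 and MUC4 lie between -0.34 and 0.25 with intervals across 0, while CDH1, EPCAM, KRT12, TP63 and KRT15 lie between -1.66 and -6.41.

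Relative to these epithelial genes, the mucins and PIGR had higher mean log2 ratios in SP, and no ratio passed its test with all 8 libraries. The choice of CDH1 and EPCAM was made after the data were seen, and since both were themselves lower in SP, they contribute to any such ratio. MUC20 stood to EPCAM at CPM ratios of 0.986, 1.45, 1.59 and 0.611 in SP libraries 1 to 4, against 0.230, 0.133, 0.672 and 0.229 in NSP libraries 1 to 4. SP library 4 lay just below NSP library 3, and the other SP libraries lay above all NSP libraries. PIGR stood to EPCAM at 6.18, 14.2, 1.97 and 3.40 in SP libraries 1 to 4, against 0.956, 0.334, 2.22 and 0.768 in NSP libraries 1 to 4. Here SP library 3 lay below NSP library 3.

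The difference in the log2 ratio to EPCAM, SP minus NSP, was 1.99 for MUC1, 1.93 for MUC4, 2.05 for MUC20 and 2.52 for PIGR. The difference in the log2 ratio to CDH1 was 1.38 for MUC1, 1.32 for MUC4, 1.44 for MUC20 and 1.91 for PIGR. The 8 ratios had two-sided exact permutation p-values from 0.0571 to 0.143, or 0.098 to 0.143 after Benjamini-Hochberg adjustment over the 8, where the smallest p that 70 splits allow is 0.0286. NSP library 3 is the library that made the groups of the 3 mucins overlap. Without it the groups were separate and the 6 mucin ratios took the smallest exact permutation p that the smaller design allows (adjusted p = 0.0381), which follows from leaving that library out and is no support. Leaving out any other library gave adjusted p from 0.114 to 0.286. NSP library 3 had the highest level of each of the 4 genes and the lowest level of CDH1 and EPCAM in its group.

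**Figure D4:**
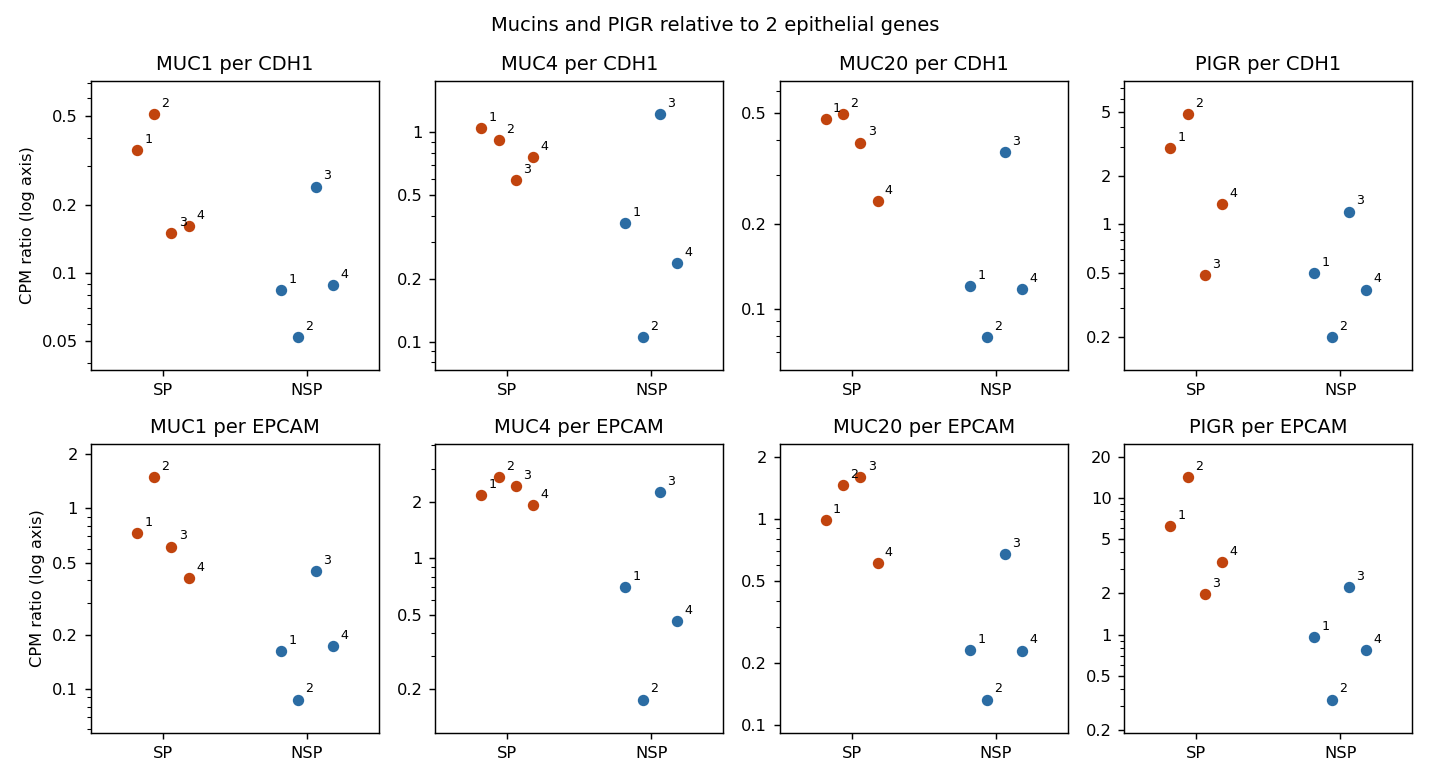
CPM of MUC1, MUC4, MUC20 and PIGR divided by CPM of CDH1 (top) and of EPCAM (bottom) in each library, on log axes, with SP left of NSP. Points are libraries with their numbers. In every panel NSP library 3 is the highest NSP point and lies higher than the lowest SP point, and for MUC4 per CDH1 it lies higher than all SP points.

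Goblet cells were looked for by 5 markers, of which MUC5AC, FCGBP, TFF1 and FOXA3 were not analysed here. The remaining marker, CLCA1, a secreted product of goblet cells, had 0 reads in all 4 SP libraries, which allows up to 0.0431 CPM over the 69577995 SP reads (3 reads, counting error only), and 0 to 2.45 CPM in NSP. Beyond CLCA1 the goblet cell marker list gave no value in either group. Among 24 goblet cell products, 6 had a row and 2 were tested. ERN2, the stress sensor IRE1 beta of mucus-secreting epithelia, was measured at 25.2, 56.4, 1.34 and 25.1 CPM in SP libraries 1 to 4, against 0.0450, 0, 0 and 0.145 CPM in NSP libraries 1 to 4. All SP libraries lay above all NSP libraries, and SP library 3 was the lowest SP library, as for SPDEF. The sums were 1941 reads in SP and 4 in NSP, a ratio of 581 with an exact 95% interval from 226 to 2134 that covers counting error only. The fitted difference for ERN2 was 8.18 ± 2.57 on the log2 scale, higher in SP (SE; limma-voom, adjusted p = 0.0342). ERN2 stayed under the minimum of 0.508 CPM in every NSP library. It met the filter only through the SP libraries, where it was high, so its call is no support. The call was lost without SP library 4 and without each NSP library, with adjusted p from 0.0716 to 0.115. The other tested product, CLCA2, a relative of CLCA1 found in stratified epithelium, was lower in SP at 2.23 ± 3.44 CPM, against 67.7 ± 11.8 CPM in NSP (log2 fold change -7.17).

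**Figure D5:**
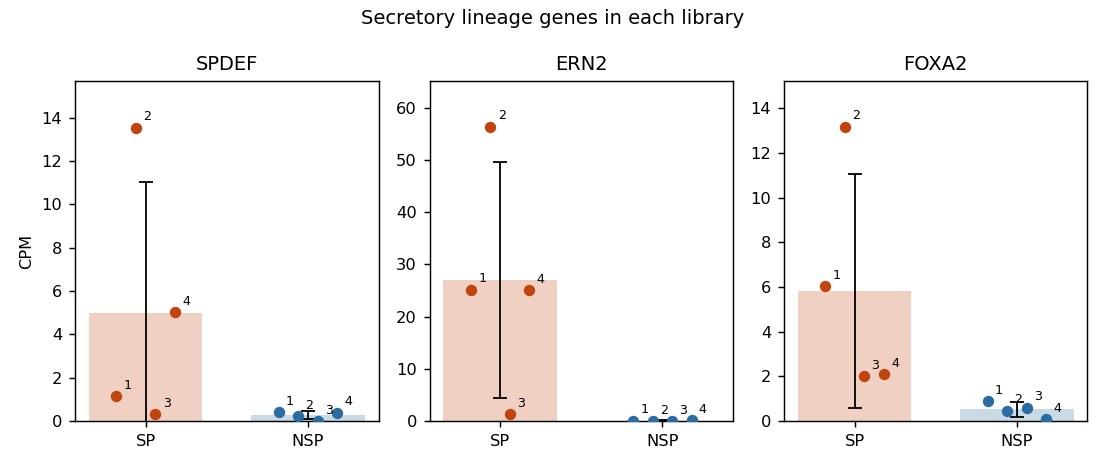
Level of SPDEF, ERN2 and FOXA2 in each library, in CPM, with SP left of NSP. Points are libraries with their numbers, shaded bars are group means (n = 4 each), and black lines are the SD, not drawn below 0. SP library 2 is the highest library in each panel, and the NSP libraries lie at or below 0.9 CPM. The 3 secretory lineage factors that were lower in SP are not drawn.

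Transcription factors of secretory lineages were listed as 25 genes, of which 18 had a row and 17 were tested, with 2 higher and 3 lower in SP (11.8% and 17.6%, against 17.7% and 13% of all genes). The median log2 fold change was -0.11. FOXA2, a forkhead factor of glandular and airway epithelium, was measured at 6.03, 13.2, 1.99 and 2.09 CPM in SP libraries 1 to 4, against 0.900, 0.462, 0.599 and 0.0966 CPM in NSP libraries 1 to 4. All SP libraries lay above all NSP libraries. Its log2 fold change was 3.37 ± 1.02 (SE, limma-voom adjusted p = 0.0297), and the call was lost without any of the NSP libraries, with adjusted p from 0.0627 to 0.0855. FOXA2 was under the minimum of 0.508 CPM in NSP libraries 2 and 4. It met the filter only with the SP libraries, where it was high, so its call is no support. GFI1, a repressor of secretory and also of blood cell lineages, was higher in SP (log2 fold change 7.20). At no more than 0.193 CPM in NSP, GFI1 met the filter only through the SP libraries, so its call is no support either. KLF5 (-2.09) and GRHL3 (-2.44), factors of stratified epithelium, were lower, and GRHL3 lost its call without NSP library 3 (adjusted p = 0.0557) and NSP library 4 (0.0587). EHF (log2 fold change -1.81) and ELF3 (-0.94) did not pass the threshold, with limma-voom adjusted p of 0.0575 and 0.268. EHF did pass as lower without SP library 1 (adjusted p = 0.0462) or SP library 2 (0.0182), with either other scaling (0.0486 and 0.0408) and with limma-trend (0.04996). EHF and ELF3, chosen for mention after their values were seen, are ETS factors of surface epithelia.

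Keratins of conjunctiva and of simple epithelia were split in direction. Of 10 such keratins, all were tested, 1 was higher and 3 were lower in SP (10% and 30%, against 17.7% and 13% of all genes), with a median log2 fold change of -0.16. KRT13 (-2.85), KRT4 (-1.48) and KRT23 (-1.50) were lower, the first pair being keratins of conjunctival surface cells. KRT18, a simple-epithelium keratin, was higher at 309 ± 217 CPM in SP, against 100 ± 17.3 CPM in NSP (SD, n = 4 each; log2 fold change 1.38). KRT7 (0.06, and -0.06 and -0.12 with the other scalings) and KRT19 (0.71), both used as conjunctival markers, did not pass the threshold, and the conjunctival markers together summed to 573 to 3398 CPM in SP and 3265 to 5122 CPM in NSP. The call of KRT18 was lost without any library other than SP library 3 (limma-voom adjusted p from 0.0523 to 0.125) and with upper-quartile factors (0.0570). That of KRT4 was lost without SP library 1 or any NSP library (0.0619 to 0.105), and that of KRT23 without SP libraries 1 and 3 and NSP libraries 2 to 4 (0.0531 to 0.0755).

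Of 18 other mucins, 9 had a row and 6 were tested, with 2 higher (33.3%, against 17.7% of all genes) and 0 lower in SP and a median log2 fold change of 2.18. The 2 that passed are mucin-like proteins known from vessel lining: EMCN (endomucin, log2 fold change 8.70) and PODXL (podocalyxin, 6.18), and EMCN is also one of the endothelial markers, whose summed levels in SP and NSP are given above. In their lowest NSP library EMCN and PODXL were at 0.185 and 0 CPM. Both met the filter only with the SP libraries, where they were high, so their calls and the count of 2 are no support. The part of vessel cells in the levels of EMCN and PODXL was not tested. MUC21, a membrane mucin of stratified epithelium named here after its values were seen, was measured at 140, 66.6, 20.9 and 51.6 CPM in SP libraries 1 to 4, against 193, 39.7, 234 and 114 CPM in NSP libraries 1 to 4. The groups overlapped, NSP library 3 was again highest and SP library 3 again lowest, and the log2 fold change of -1.08 did not pass (limma-voom adjusted p = 0.229). CD164, MUC13 and MUC19 did not pass either.

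Genes of O-glycosylation were listed as 52, a list that also takes in enzymes of N-glycans (FUT8, ST6GAL1) and glycolipids (ST3GAL5, B4GALT6, B3GNT5), of which 43 had a row and 40 were tested, with 11 higher and 4 lower in SP (27.5% and 10% of those tested, against 17.7% and 13% of all genes). The median log2 fold change was 0.39. Of the higher genes, GALNT15 had 0 reads in NSP, and GCNT1 and GCNT2 were under 0.508 CPM in their lowest NSP library. These genes met the filter only with the SP libraries, where they were high. Of the lower genes, GALNT13 and GALNT14 were under 0.508 CPM in their lowest SP library and met the filter only with the NSP libraries. The calls of these genes, and the counts of 11 and 4 that include them, are no support. ST3GAL5, a sialyltransferase that makes the ganglioside GM3, was higher at 172 ± 85.3 CPM in SP, against 6.97 ± 2.45 CPM in NSP (log2 fold change 4.57). B3GNT7, which extends keratan sulfate and related chains, was higher as well (3.83). GALNT10 (-1.40) and GALNT13 (-4.05), which start O-glycans, were lower in SP. The counts are therefore not counts of mucin O-glycosylation alone.

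Proteins that anchor, partner or shed membrane mucins were listed as 18 genes, of which 15 had a row and were tested, with 2 higher and 4 lower in SP (13.3% and 26.7%, against 17.7% and 13% of all genes) and a median log2 fold change of 0.21. EGFR, a receptor known to bind MUC1, was lower at 56.9 ± 28.2 CPM in SP, against 384 ± 56.4 CPM in NSP (log2 fold change -2.97). MET, the partner of MUC20, was lower at 57.8 ± 6.95 CPM in SP, against 171 ± 37.4 CPM in NSP (-1.55). ERBB2, the partner of MUC4 (-2.03), and EZR, ezrin, which ties membrane mucins to actin (-1.62), were the remaining lower genes and complete the 4. ERBB3, another receptor of the list, had a log2 fold change of -0.36 and did not pass (limma-voom adjusted p = 0.676). ZAP70, a T cell kinase listed for its link to MUC1, was higher (10.87) and is also in the T and NK cell marker list. In NSP its level was 0 to 0.848 CPM, with a median of 0.289 CPM. ZAP70 met the filter only with the SP libraries, where it was high, so its call is no support. MSN, moesin, was higher (1.19), and its call was lost without SP library 4 (limma-voom adjusted p = 0.0540) or NSP library 1 (0.0788).

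The list of immunoglobulin A transport and apical traffic around PIGR held 19 genes, of which 14 had a row and were tested, with 2 higher and 1 lower in SP (14.3% and 7.1%, against 17.7% and 13% of all genes) and a median log2 fold change of -0.15. RAB27A, a GTPase of secretory granules and melanosomes, was higher at 146 ± 37.0 CPM in SP, against 52.2 ± 19.6 CPM in NSP (log2 fold change 1.54). VAMP3, a recycling vesicle SNARE, was higher (0.78), with its call lost without NSP library 1 (limma-voom adjusted p = 0.0640) and with upper-quartile factors (0.0557). RAB25, a GTPase of epithelial recycling endosomes, was lower at 79.6 ± 32.7 CPM in SP, against 201 ± 47.2 CPM in NSP (-1.44).

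Antimicrobial secretions were listed as 23 genes, of which 16 had a row and 13 were tested, with 2 higher and 2 lower in SP (15.4% each, against 17.7% and 13% of all genes) and a median log2 fold change of -0.36. S100A9 (1.98) and S100A8 (2.87) were higher, and both are also neutrophil markers, a list that summed to 97.3 to 173 CPM in SP and 24.5 to 145 CPM in NSP. Other neutrophil markers differed: LTF (-4.14) and S100A12 (-0.59) pointed to lower levels in SP without passing (limma-voom adjusted p = 0.102 and 0.401). MPO had 1 read in SP, MMP8 had 0 in both groups, and CXCR2 had 140 in SP and 0 in NSP. S100A8, at 0.495 CPM in its lowest NSP library, met the filter only with the SP libraries, so its call is no support. S100A9 lost its call without NSP library 2 (limma-voom adjusted p = 0.0503) and with sample quality weights (0.0623). S100A8 lost it without any library other than SP libraries 2 and 4 (0.0636 to 0.141) and under both other scalings. DUOX1, an oxidase of mucosal surfaces (-3.10), and CST3, cystatin C (-1.45), were lower. DMBT1, a scavenger protein of tears and saliva named here after its values were seen, was measured at 504, 2358, 100 and 183 CPM in SP libraries 1 to 4, against 523, 441, 1151 and 434 CPM in NSP libraries 1 to 4. Its highest libraries were SP library 2 and NSP library 3, as for PIGR, and its groups overlapped. The log2 fold change was -0.61 and did not pass (limma-voom adjusted p = 0.610).

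LCN2 and PSCA were not analysed here, and the 2 lists of genes set beside them do not stand in for their levels. Iron and lipocalin genes were listed as 23, of which 13 had a row and 12 were tested, with 1 higher and 2 lower in SP (8.3% and 16.7%, against 17.7% and 13% of all genes) and a median log2 fold change of -0.29. HMOX1, heme oxygenase, was higher (1.41), CRABP2, a retinoic acid carrier, was lower at 16.4 ± 17.0 CPM in SP, against 124 ± 13.6 CPM in NSP (-3.44), and FABP5, a fatty acid carrier, was lower (-1.42). HMOX1 lost its call without SP library 4 (limma-voom adjusted p = 0.0518) or NSP library 1 (0.0794), and FABP5 without SP libraries 2 and 4 and NSP libraries 1 and 4 (0.0507 to 0.0999). Of 17 genes of the Ly6/uPAR family of PSCA, 4 were tested and 0 passed in limma-voom, where 30.7% of all tested genes did. With 4 genes, a count of 0 says little about the family. At an unadjusted p under 0.05 the count was 0 as well, with log2 fold changes from -1.90 to 0.77.

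The endoplasmic reticulum machinery that AGR2 belongs to was listed as 26 genes, of which 17 had a row and were tested, with 10 higher (58.8%, against 17.7% of all genes) and 0 lower in SP and a median log2 fold change of 0.82. PDIA5, a disulfide isomerase, was higher at 234 ± 135 CPM in SP, against 30.2 ± 7.37 CPM in NSP (log2 fold change 2.85), and DNAJC3, a chaperone of the unfolded protein response, at 134 ± 64.6 and 21.1 ± 2.19 CPM (2.56). Beside them, B and plasma cell markers summed to 477 to 1130 CPM in SP and 102 to 138 CPM in NSP, and their part in these levels was not tested.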

How the data were processed

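Per the labels, the 8 samples (4 SP, 4 NSP) gave total RNA, and an Ion Proton instrument read the libraries. The authors deposited 1 fixed-width table with 163 fields of 8 characters in 6 stacked blocks. Neighbouring fields touch, so it was read by character position. For each library, a field of whole numbers was taken as the unscaled exon read count, since the deposited group means were recomputed from it with a largest difference of 0.05. The fold and p-value fields of an EDGE test were deposited by the authors, per the file headers. Aligner, build and annotation: not given in the sources used here. A further 143 per-library fields were not used. Names of 8 characters are cut short, and 313 of them had a single match among RefSeq symbols of mOryCun1.1, from which only names were taken, which with 10603 complete names made 10916 usable names. No sequences are shown.

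Library sizes were totals over all 20922 entries, scaled with TMM factors (trims of 30% and 5%). Genes were kept with at least 0.508 CPM (what 10 reads make in a library of median size) in at least 4 libraries and with 15 reads in all, and tested with limma-voom (limma 3.58.1, R 4.3.3; count offset 0.5; group only; two-sided; Benjamini-Hochberg adjusted p of 0.05 over 10012 genes). No count-model test was run. Ratios were compared by exact permutation of log2 CPM ratios, and profiles on log2(CPM + 0.5). Alternatives were 2 other scalings, 2 other filters, limma-trend, sample quality weights and leaving out each library. Parsing and plots used pandas 2.3.3, matplotlib 3.10.9 and NumPy 2.4.6 under Python 3.11.15.

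The 10 genes, the 11 context lists and the 10 marker lists were chosen with earlier results of these data known, and they are described by counts and medians. Genes were named by a rule: all 10 genes; from each context list up to 2 genes with the smallest p in each direction; the first pair of each marker list; and the 3 closest profiles of the 3 genes with the highest mean CPM. Of the marker pairs, values are printed where they touch a result. Genes outside the rule, such as ERBB2, ERBB3, EZR, KRT7, KRT19, KRT15, TP63, CDH1, EPCAM, CD164, MUC13 and MUC19, were chosen after their values were seen.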

Additional observations from a re-analysis of the deposited data

Results flagged for a closer look

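None of the groups of 4 libraries of MUC1, MUC4, MUC20, PIGR or SPDEF held a library far from the rest by Dixon's criterion at its 95% critical value. Among all 120 groups of 4 libraries looked at, 10 did, all of genes set beside them, and chance flags about 5% of groups. NSP library 3, the highest NSP library for MUC1, MUC4, MUC20 and PIGR, stood apart in 3 of them: EPCAM was at 575 CPM there, with the next NSP library at 913 CPM, DMBT1 at 1151 CPM, with the next at 523 CPM, and EHF at 2080 CPM, with the next at 1185 CPM. SP library 2, the highest SP library for the same genes, had KRT19 at 1475 CPM, with the next at 445 CPM. CRABP2 was at 41.9 CPM in SP library 4, with the next SP library at 9.87 CPM. KRT15, a limbal basal keratin, was at 2035 CPM in SP library 4, with the next at 155 CPM. KRT12, the corneal keratin, was at 3829 CPM in SP library 1, with the next at 644 CPM. PDIA5 was at 436 CPM in SP library 4, with the next at 181 CPM. PODXL was at 133 CPM in SP library 4, with the next at 38.0 CPM. VWF, an endothelial marker, was at 1.06 CPM in NSP library 2, with the next at 0.135 CPM.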

How the results depend on the processing

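No paired analysis was possible because the columns of the table carry the group but no replicate number. MUC1, MUC4, MUC20 and PIGR passed the threshold in none of 15 settings, with limma adjusted p from 0.287 to 0.990, 0.393 to 0.919, 0.343 to 0.952 and 0.190 to 0.969, and their sign was not stable. With sample quality weights the log2 fold change was 0.38 for MUC1, 0.25 for MUC4, 0.34 for MUC20 and 1.01 for PIGR. Leaving out 1 library gave -0.96 to 0.43 for MUC1, -0.87 to 0.26 for MUC4, -0.69 to 0.23 for MUC20 and -0.59 to 1.31 for PIGR. The cause was not tested. Over all genes, leaving out 1 library gave 1205 to 2098 higher and 970 to 1752 lower calls.

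Some list counts moved with the setting. With no filter, 3 goblet cell products were lower. With upper-quartile factors, 0 keratins were higher, 5 transcription factors lower, 1 antimicrobial gene higher, and 1 immunoglobulin A gene higher and 2 lower. With median-ratio factors, 1 antimicrobial gene was higher and 2 immunoglobulin A genes lower. With quality weights, 4 anchoring genes and 1 antimicrobial gene were higher, and with limma-trend 2 iron genes were higher. Leaving out 1 library gave 2 to 4 other mucins higher, 0 to 1 goblet cell products higher, 0 to 1 keratins higher and 1 to 3 lower, 1 to 3 transcription factors higher and 1 to 4 lower, 1 to 3 anchoring genes higher, 0 to 2 antimicrobial genes higher, 1 to 3 immunoglobulin A genes higher and 1 to 2 lower, 0 to 1 iron genes higher and 1 to 2 lower, and 6 to 12 endoplasmic reticulum genes higher. Of 55 other named genes, 13 lost their call in 1 or more settings, EHF gained one, and sign changes were seen in KRT7 and DMBT1, which had no call: KRT7 was -0.059 with median-ratio and -0.12 with upper-quartile factors and -0.58 to 0.59 without 1 library, and DMBT1 0.38 with quality weights and -1.48 to 0.041 without 1 library. In a fit without 1 library the filter asked for 3 libraries. With 4 libraries a group and this spread, changes within the intervals above remain compatible with the data. The intervals are not adjusted for the number of genes and are no limit of detection.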
